A study of Mus musculus with 6 samples.

Results

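Transcription factor genes of the lateral ventricular choroid plexus were compared between embryonic day 15 (E15) and adult mice. The members are transcript clusters, each the group of exon probe sets assigned to 1 locus of the array, whose molecular function annotation contains the words transcription factor activity, or whose symbol begins with Sox, Fox, Hox, Pax, Lhx or Klf. Clusters annotated to the cell cycle, Wnt receptor signaling, angiogenesis or blood vessels were left out. This gave 155 clusters out of 3956 in the authors' deposited tables of gene-level differences and of splicing indices joined, 149 found by the annotation and 6 by symbol only. A further 36 clusters met the first part of the rule and were left out by the second.

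For each age 3 Affymetrix exon arrays were hybridised, and each held a pool of plexuses from healthy Swiss Webster mice. The E15 pools held 30 embryos of mixed sex and the adult pools 10 females, per the labels; a checklist of the study gives other pool sizes and calls the embryos unsexed. Plexuses were taken whole, so epithelium, stroma and vessels were measured together. Sex differed with age and cannot be told apart from it here, and the cell composition of the pools was not measured. The hour of collection was not given in the sources used here.

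The 2 processed tables used here hold the authors' log2 values, 1 for each age, and 0 columns for a single array. The pair of values of a cluster lies around 0 and holds the difference between the ages but no level of expression, so genes cannot be ranked by abundance. Differences below are adult minus E15, so a negative one is higher at E15, and a fold is 2 raised to the size of the difference. The 3 arrays of an age are merged in these tables, so no replicate error or test is given; the values of single arrays were not analysed here. What stands in for a test is the entry into the gene-level table, for which the authors required at least a 2-fold difference and a p, after correction, of no more than 0.05. The splicing index table holds many clusters below 2-fold, and of these no more than a value is known.

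Sequence-specific transcription factors read short DNA words through a DNA-binding domain, and the domain defines the family: homeodomain, forkhead, Sox, nuclear receptor, basic leucine zipper (bZIP), basic helix-loop-helix (bHLH) and others. Nuclear receptors are in addition switched by small lipid-soluble ligands, or are orphans without a known one. The choroid plexus epithelium arises from the dorsal midline of the neural tube, where factors such as Lmx1a, Lhx2, Emx2, Gli3 and the Zic proteins pattern the boundary between cortex, hem and plexus. In adult tissues the clock factors set daily cycles of transcription, and the PAR bZIP factors, which include Dbp, Tef and Hlf, carry those cycles to target genes.

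Not all members are sequence-specific factors. By family, 119 of the 155 bind DNA in this sense and 36 do not: 9 are general transcription or elongation factors, 10 are cofactors or chromatin proteins, and 17 are other proteins that carry the annotation or a matching symbol. The last group includes Slc4a10, a sodium-coupled bicarbonate carrier of the plexus epithelium, the metabolic enzyme Ugp2, the kinase Ripk4, several ankyrin repeat proteins, and the oxidoreductases Foxred1 and Foxred2, whose symbols merely begin with Fox. Of the 66 members in the gene-level table, 12 belong to these groups, 5 higher at E15 and 7 higher in adult. They stay in the counts by the rule.

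Transcription factors were divided between the ages much as the tables around them. Of the 155 members 66 (42.6%) were in the gene-level table, against 45.6% of all clusters in the joined tables. Of these, 34 were higher at E15, and 23.4% of all joined clusters were in the gene-level table with that direction. The other 32 were higher in adult, where the share of all joined clusters was 22.2%. The share of gene-level members higher at E15 was 51.5% (95% Wilson interval 39.7 to 63.2, across clusters, which are not replicates), against 51.2% of the gene-level table. As deposited, the share of members past the 2-fold threshold and the balance of directions were thus near the background, and neither is a result about transcription factors. Re-centring both ages on their median over the gene-level table adds 0.85 to every difference, too little to turn a 2-fold difference. The same step over the splicing index table adds 0.16. The gene-level table holds no difference below 2-fold, so its shift depends on which side holds a few more clusters. It is not a measured offset of the arrays, and it can only take members from the E15 side. Of the 37 members that remained past 2-fold 5 (13.5%) lay toward E15, namely Dach1, Hif3a, Tbx18, Foxm1 and Sox11, against 24.1% of the 1160 such clusters in the gene-level table, a difference that was not tested.

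The folds of the members were modest. Their median was 2.60 among those higher at E15 and 2.48 among those higher in adult, against 2.78 and 2.67 in the whole gene-level table. At least 4-fold differences were found for 6 of 66 members, and for 23.6% of the table. At least 3-fold differences were found for 19, and for 40.4% of the table. The largest fold of a member was 9.58, where the table reached 234. The median difference of the gene-level members was -1.003 and that of the table -1.01, and since no gene-level value lies between -1 and 1, these medians tell only which side holds a few more clusters.

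**Figure D1:**
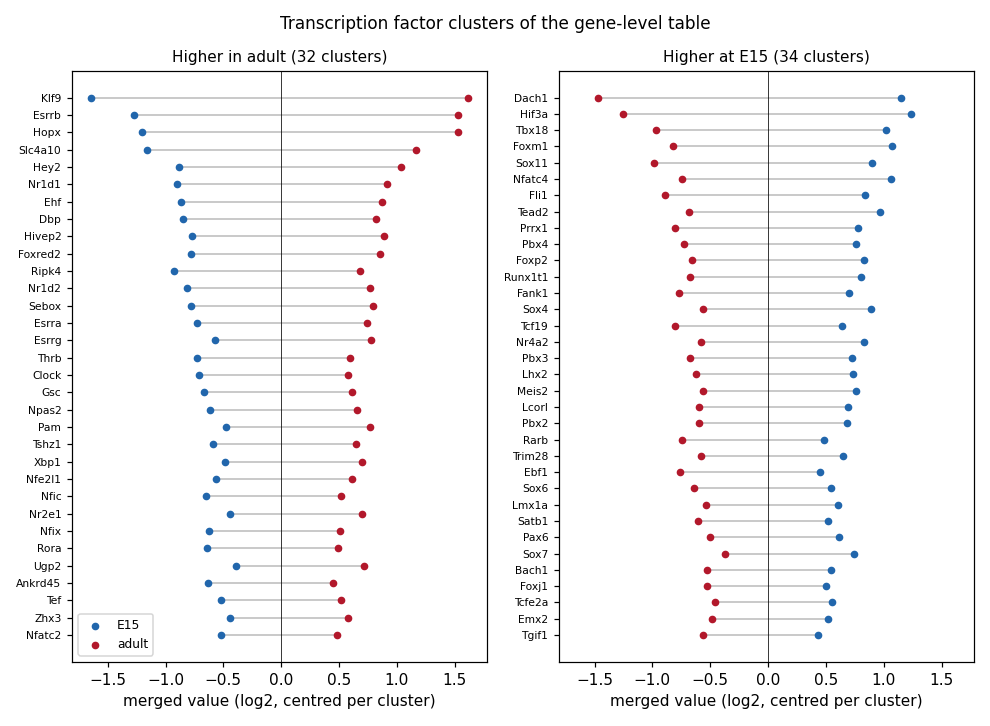
Merged log2 values of E15 (blue) and adult (red) for the 66 transcription factor clusters of the gene-level table, centred for each cluster and ordered by the size of the difference, with 32 higher in adult on the left and 34 higher at E15 on the right. Each point is the authors' value for 3 merged arrays, so no error bar can be drawn; Klf9 and Dach1 have the longest lines on their sides.

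Klf9 differed most among the members higher in adult. It is a Krüppel-like zinc finger factor that responds to thyroid hormone and glucocorticoids, and its merged values were 1.61 in adult and -1.65 at E15, a difference of 3.26 and a fold of 9.58. Its cluster also carries the name of a cDNA clone that the RefSeq annotation lists under Klf9 as well. Esrrb, an orphan receptor related to the estrogen receptors, had values of 1.53 and -1.27, a difference of 2.80 (fold 6.98). Hopx, a small homeodomain protein that does not bind DNA itself and acts through partners, had values of 1.53 and -1.20, a difference of 2.73 (fold 6.63). An antisense transcript, Hopxos, overlaps Hopx in the annotation. Slc4a10, the bicarbonate carrier, followed with a difference of 2.32.

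Hey2, a bHLH repressor downstream of Notch receptors, had values of 1.04 in adult and -0.88 at E15, a difference of 1.92 (fold 3.77). The remaining members of the 10 largest in adult were the cluster shared by Nr1d1 and Thra (difference 1.81, fold 3.52), the epithelial Ets factor Ehf (1.74, 3.34), Dbp (1.67, 3.18), the zinc finger protein Hivep2 (1.66, 3.17) and Foxred2 (1.63, 3.10). With Slc4a10, Hopx and Foxred2 set aside, 7 of these 10 are sequence-specific factors, and 4 of the 7 are nuclear receptors or clock-related factors by the lists used below, Klf9, Esrrb, Nr1d1 and Dbp.

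Dach1, the homologue of dachshund and a partner of the Eya proteins, differed most among the members higher at E15. Its values were -1.47 in adult and 1.15 at E15, a difference of -2.63 and a fold of 6.17. Hif3a, a member of the hypoxia-inducible factor family, had values of -1.25 and 1.24, a difference of -2.49 (fold 5.62). For Tbx18, a T-box factor of mesenchyme and pericytes, the values were -0.97 and 1.02, a difference of -1.99 (fold 3.97). Dach1 and Hif3a were the only members higher at E15 past 4-fold, and Tbx18 lay just under it.

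Foxm1, a forkhead factor that drives genes of mitosis, had values of -0.82 in adult and 1.07 at E15, a difference of -1.90 (fold 3.72). Its cluster is shared with a cDNA clone now named Tex52, whose locus overlaps it. Sox11, Nfatc4, Fli1, Tead2, Prrx1 and Pbx4 completed the 10 largest at E15, with differences from -1.88 for Sox11 to -1.48 for Pbx4 and folds from 3.69 to 2.80. Sox11 is a factor of progenitors and young neurons, Nfatc4 is switched by calcineurin, Fli1 is an Ets factor of endothelium and blood, Tead2 is a DNA-binding partner of Yap, Prrx1 is a factor of mesenchyme, and Pbx4 is a partner of Hox proteins.

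Grouped by family, homeodomain and Sox factors lay toward E15 and nuclear receptors toward adult. All 5 TALE homeodomain members, the Pbx, Meis and Tgif proteins that form complexes with other homeodomain factors, were in the gene-level table and higher at E15: Pbx4, Pbx3 (difference -1.40), Meis2 (-1.32), Pbx2 (-1.28) and Tgif1 (-1.0002). Over all homeodomain classes, 11 of the 14 gene-level members were higher at E15. So were 12 of the 15 present only in the splicing index table, against 56.5% of all clusters of that kind. These 12 have no test, and Barx2 (-0.12), Hoxb3 (-0.02) and Lhx6 (-0.003) among them turn sign when that table is re-centred. The classes leave out Hopx, counted as a cofactor because it does not bind DNA; with it 11 of 15 gene-level members were higher at E15. The others higher in adult were Sebox (1.57, fold 2.97), Gsc (1.28, fold 2.43) and Zhx3 (1.02, fold 2.02), the first pair being paired-type homeodomain genes and the last a zinc finger and homeobox repressor. All 4 gene-level Sox members and all 3 gene-level forkhead members were higher at E15. Of all gene-level clusters 51.2% had that direction, and no test was made of these families. After the re-centring above, 0 homeodomain members and 1 of the 4 Sox members, Sox11, and 1 of the 3 forkhead members, Foxm1, stayed past 2-fold at E15. The 3 homeodomain members and the 8 nuclear receptors higher in adult all stayed, as they must, since the shift adds to their differences.

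The Sox members fall into several groups of the family. Sox4 and Sox11 are close relatives of the SoxC group with roles in progenitors, and Sox4 had values of -0.57 in adult and 0.89 at E15, a difference of -1.46 (fold 2.75), against -1.88 for Sox11. Sox12, the remaining SoxC gene, was present only in the splicing index table with a difference of -0.50. Sox6, a SoxD factor, had a difference of -1.19 (fold 2.28), and Sox7, a factor of endothelium, one of -1.11 (fold 2.16). The forkhead genes beside Foxm1 were Foxp2 (-1.48, fold 2.80) and Foxj1 (-1.02, fold 2.03), the master regulator of motile cilia.

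Promoters of Sox4 and Sox11 are shown because these close relatives moved the same way, as the 250 bases upstream of the RefSeq start site in GRCm38.p6, 5′ to 3′. Capitals mark CCAAT, the word of the NF-Y complex, GGGCGG, the word of Sp and Krüppel-like factors, and CACGTG, the E-box bound by Clock and its partners, on either strand and overlaps included.
Sox4, chr13:28953700-28953949, minus strand: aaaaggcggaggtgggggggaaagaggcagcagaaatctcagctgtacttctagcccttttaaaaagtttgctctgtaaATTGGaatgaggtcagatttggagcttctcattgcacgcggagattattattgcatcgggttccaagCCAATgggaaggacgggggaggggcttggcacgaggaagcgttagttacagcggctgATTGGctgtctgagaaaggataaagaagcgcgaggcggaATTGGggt
Sox11, chr12:27342719-27342968, minus strand: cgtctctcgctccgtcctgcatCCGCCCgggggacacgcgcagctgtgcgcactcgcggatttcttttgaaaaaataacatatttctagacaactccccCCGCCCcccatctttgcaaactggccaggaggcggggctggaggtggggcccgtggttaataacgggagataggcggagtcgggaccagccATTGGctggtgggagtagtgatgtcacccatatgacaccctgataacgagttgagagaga
The Sox4 sequence holds CCAAT 4 times and GGGCGG 0 times, and the Sox11 sequence holds CCAAT 1 time and GGGCGG 2 times, so the pair do not share an arrangement of these words.

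**Figure D2:**
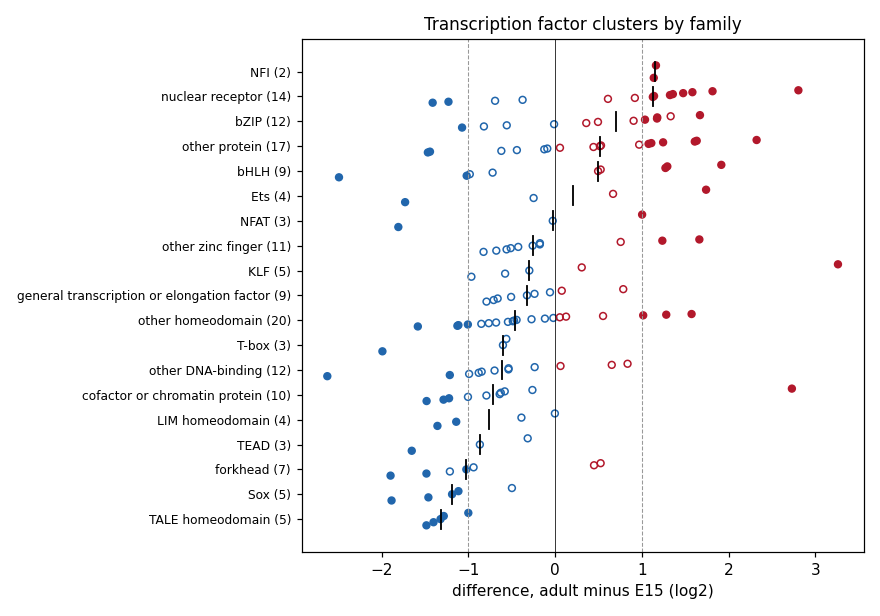
Difference (adult minus E15, log2) of each of the 155 members by family, with the number of members in brackets and families ordered by their median, drawn as a black bar. Filled points are in the gene-level table and open points only in the splicing index table, blue is higher at E15 and red higher in adult, and the dashed lines mark 2-fold; the 5 TALE members lie at or left of the 2-fold line and 8 of the 10 filled nuclear receptor points lie right of 1.

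Nuclear receptors were the largest family higher in adult. Of 10 gene-level members 8 were higher in adult and 2 at E15, where 48.8% of the gene-level table was higher in adult. All 3 estrogen-related receptors, orphan receptors known for control of mitochondrial and energy genes, were among them: Esrrb at 2.80, Esrra with values of 0.74 in adult and -0.73 at E15, a difference of 1.48 (fold 2.78), and Esrrg with 0.78 and -0.58, a difference of 1.36 (fold 2.56). The coactivator Ppargc1a, a known partner of these receptors, is not a member and had a difference of 1.94 (fold 3.85). Thrb, a receptor of thyroid hormone, had a difference of 1.32 (fold 2.50). The cluster of the other thyroid hormone receptor, Thra, is shared with Nr1d1, whose gene overlaps it, so its value belongs to neither alone.

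Nr1d2 (1.58, fold 2.99), Rora (1.13, fold 2.18) and Nr2e1 (1.14, fold 2.20), the last known from neural stem cells, were the remaining nuclear receptors higher in adult. The 2 higher at E15 were Nr4a2 (-1.41, fold 2.66), an orphan receptor induced by many stimuli, and the cluster of the retinoic acid receptor Rarb (-1.23, fold 2.34), which is shared with a ribosomal protein gene and 2 predicted genes. The annotation term steroid hormone receptor activity was carried by 11 clusters of the gene-level table, of which 10 were members, and 8 of the 11 were higher in adult. Below 2-fold, the splicing index table gave Ppara 0.92, Rara -0.37 and Nr4a3 -0.69.

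Clock and PAR bZIP factors were higher in adult throughout the gene-level table. Of a list of 19 such symbols 13 had an entry, and 11 of these are members. All 10 gene-level clusters of the list were higher in adult, with a median difference of 1.62, where 48.8% of the gene-level table had that direction. The list was written with earlier results of these data known. Dbp had values of 0.82 in adult and -0.85 at E15, Nr1d2 0.77 and -0.81, and the cluster of Nr1d1 and Thra 0.91 and -0.90. Tef, at the edge of the threshold, had 0.52 and -0.52, a difference of 1.04 (fold 2.05).

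Among the gene-level clusters of the list, activators and repressors lay on the same side. The activators Clock (1.29, fold 2.45), its paralogue Npas2 (1.27, fold 2.41) and Rora stood at 1.13 to 1.29, the repressor Nr1d2 at 1.58, and the cluster that the repressor Nr1d1 shares with Thra at 1.81. The bHLH repressors Bhlhb2 and Bhlhb3, now named Bhlhe40 and Bhlhe41 and outside the rule because of their annotation, had differences of 2.86 (fold 7.27) and 1.66 (fold 3.17). Of the 3 list members present only in the splicing index table, Hlf had a difference of 0.90 toward adult and Klf10 one of -0.96 toward E15. Arntl, the obligate partner of Clock and Npas2, is listed in neither table and has no value here.

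A further 10 genes that interact with the clock were looked up after the values of the list were seen, and 5 had an entry. Per2, a repressor, had a difference of 1.21 (fold 2.32) and the protease gene Usp2 one of 2.01 (fold 4.02), both toward adult. The kinase gene Csnk1e had a difference of -1.34 (fold 2.53) and Timeless one of -1.03 (fold 2.04), both toward E15, and Cry1, a core repressor, had -0.83 in the splicing index table. Direction was therefore not the same over these 5 genes, of which Cry1 is below 2-fold and without a test.

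**Figure D3:**
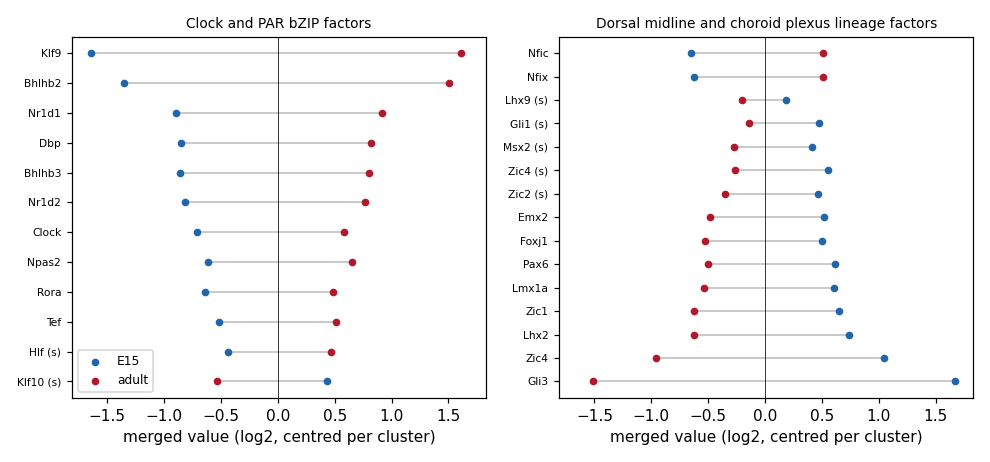
Merged log2 values of E15 (blue) and adult (red) for the clock and PAR bZIP list without 1 entry (left) and of the list of dorsal midline and plexus lineage factors (right), centred for each cluster and without error bars since the 3 arrays of an age are merged; (s) marks clusters present only in the splicing index table. Left, all 10 unmarked clusters have the adult point on the right; right, 8 of the 10 unmarked clusters have the E15 point on the right, Nfix and Nfic being the exceptions.

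Promoters of clock factors higher in adult are shown for the E-box that clock activators read, with the same window, build and capitals as for the Sox genes. Tef has 2 start sites in the table.
Dbp, chr7:45704997-45705246, plus strand: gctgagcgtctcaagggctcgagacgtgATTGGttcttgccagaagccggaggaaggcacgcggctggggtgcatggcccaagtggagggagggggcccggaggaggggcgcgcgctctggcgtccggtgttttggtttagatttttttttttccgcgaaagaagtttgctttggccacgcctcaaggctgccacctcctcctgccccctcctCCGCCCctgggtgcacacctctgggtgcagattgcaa
Tef first start site, chr15:81802423-81802672, plus strand: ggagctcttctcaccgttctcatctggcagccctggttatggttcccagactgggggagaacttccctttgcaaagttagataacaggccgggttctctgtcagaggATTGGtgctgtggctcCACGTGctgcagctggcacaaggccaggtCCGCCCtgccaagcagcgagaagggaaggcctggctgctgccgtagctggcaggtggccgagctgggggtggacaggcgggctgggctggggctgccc
Tef second start site, chr15:81811164-81811413, plus strand: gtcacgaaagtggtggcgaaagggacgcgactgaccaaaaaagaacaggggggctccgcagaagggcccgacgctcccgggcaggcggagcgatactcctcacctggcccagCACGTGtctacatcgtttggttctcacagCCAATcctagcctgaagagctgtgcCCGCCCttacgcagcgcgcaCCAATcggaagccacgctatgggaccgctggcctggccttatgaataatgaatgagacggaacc
Nr1d2, chr14:18239107-18239356, minus strand: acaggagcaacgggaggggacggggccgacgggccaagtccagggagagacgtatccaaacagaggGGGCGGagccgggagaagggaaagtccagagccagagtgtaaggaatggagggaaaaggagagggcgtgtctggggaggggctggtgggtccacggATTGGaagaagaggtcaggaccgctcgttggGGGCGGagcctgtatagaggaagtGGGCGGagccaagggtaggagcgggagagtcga
Both Tef windows hold CACGTG, with its first base at -127 and -138 from the start site, and the Dbp and Nr1d2 windows hold it 0 times, as do those of Nr1d1 and Klf9, which are not printed. The Nr1d2 window holds GGGCGG 3 times. No match says only that these letters are not in this window.

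The same words were counted on both strands over all RefSeq windows of 250 bases. CACGTG was found in 5 of 50 windows (10.0%) of the 29 gene-level members higher in adult that had a promoter entry, in 1 of 44 windows (2.27%) of the 27 such gene-level members higher at E15, and in 6.02% of all 32851 windows. CCAAT was found in 42.0%, 29.5% and 33.8% of these windows, GGGCGG in 54.0%, 40.9% and 32.7%, and TATAAA in 12.0%, 6.82% and 12.4%. TGACGTCA, the word of cyclic AMP response factors, was found in 2.00%, 2.27% and 1.55%, and TTTNGCGC, a word of E2F factors, in 2.00%, 2.27% and 1.13%. For the members, each share of these last words rests on 1 window. Both Tef windows are among the 5 with CACGTG, so the shares count windows and not genes. Over all members CACGTG was found in 6.95% of windows and GGGCGG in 55.6%.

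Factors that pattern the dorsal midline were mostly higher at E15. A list of 34 such symbols gave 15 clusters, 9 of them members, and 8 of its 10 gene-level clusters lay toward E15, with a median over the 10 of -1.13, where 51.2% of the gene-level table had that direction. After re-centring, 2 of the 8, Gli3 and a Zic4 cluster, stayed past 2-fold at E15, beside the 2 in adult. Lhx2, a LIM homeodomain factor that sets the border of cortex and hem, had values of -0.62 in adult and 0.74 at E15, a difference of -1.36 (fold 2.56). Lmx1a, a LIM homeodomain factor of the roof plate and hem, had -0.53 and 0.61, a difference of -1.14 (fold 2.20). Pax6 (-1.11, fold 2.17), whose locus overlaps an antisense gene and Elp4, Foxj1 (-1.02) and Emx2 (-1.01, fold 2.01) lay closer to the threshold.

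The list also held factors that were not members by their annotation. Among them were Gli3, an effector of Hedgehog signals that is needed for plexus formation, at -3.18 (fold 9.06), a cluster of Zic4 at -2.00, and Zic1, in a cluster shared with a predicted gene, at -1.28. Another Zic4 cluster, which also bears the name of a cDNA clone, had -0.81 and an entry among the splicing indices alone. The exceptions were Nfix (1.14, fold 2.20) and Nfic (1.16, fold 2.24), nuclear factor I genes linked to late differentiation, which were higher in adult. Msx2 (-0.68) and Lhx9 (-0.39) were present only in the splicing index table. Otx2, a defining factor of the plexus epithelium, had no entry in either table.

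A list of 39 cofactors and dominant-negative partners was looked up, of which only some are partners of the LIM homeodomain factors. Of its 14 clusters 6 had a gene-level entry, 5 toward E15 and 1, Ppargc1a, toward adult, against 45.6% of joined clusters with such an entry and 51.2% of those toward E15. Ldb2, an adaptor that joins LIM factors into complexes, had a difference of -1.95 (fold 3.87), its relative Ldb1 one of -0.76 below 2-fold, and Lmo4, a LIM-only protein that competes for these adaptors, one of -1.57 (fold 2.97). Dach1, Cited2 (-2.34, fold 5.05) and Cbfb (-1.49, fold 2.81) were the other gene-level clusters higher at E15. Lmo3, a relative of Lmo4, had -1.01 (fold 2.02) without a gene-level entry. After re-centring, Ldb2, Dach1 and Cited2 stayed past 2-fold, 3 of the 5.

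Some of these factors belong to cell types other than the epithelium, and the markers of those types moved too. Of 39 listed mesenchyme factors 13 had an entry: Tbx18, Prrx1 (values of -0.80 in adult and 0.78 at E15) and Zeb2 (-1.11) were higher at E15 with a gene-level entry, Scx (3.27, fold 9.62) was higher in adult, while all 9 found only in the splicing index table had negative differences, the largest for a member being Foxf2 at -1.21. Over all clusters 45.6% had a gene-level entry, 51.2% of those lay toward E15, and 56.5% of those with a splicing index entry alone did. Beside them, 6 of 6 gene-level marker clusters of mesenchyme and matrix were higher at E15, from Col3a1 at -3.14 to Col1a2 at -1.04. After re-centring, Tbx18 alone of the 3 factors and 4 of the 6 markers stayed past 2-fold at E15. In such whole tissue, fewer cells of a type and less RNA per cell cannot be told apart. The part of these markers in the differences of Tbx18 and Prrx1 was not tested.

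Of 16 endothelial factors 11 had an entry, and 4 of its 5 gene-level clusters lay toward E15, Fli1, Sox7, Ets1 (-1.78) and Ets2 (-1.66), against Hey2 in adult, where the share of the gene-level table toward E15 was 51.2%. After re-centring, 0 of the 4 and 1 of the 4 endothelial markers below, Cdh5, stayed past 2-fold at E15. The endothelial markers in the gene-level table, Cdh5, Pecam1, Esam1 and Kdr, were all 4 higher at E15, with differences from -2.10 to -1.23. Foxm1 stood beside 10 of 10 gene-level markers of cycling cells higher at E15, with a median difference of -3.15, 8 of them past 2-fold after re-centring. Of 12 erythroid factors 4 had an entry and 1, Sox6, was in the gene-level table, against 45.6% of joined clusters, beside 6 of 6 erythroid markers higher at E15. Values centred for each cluster hold no summed level of a marker list, and whether a marker was at background cannot be read. The part of these markers was not tested.

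Of 47 listed neural factors 12 had an entry, where 45.6% of joined clusters were gene-level and 51.2% of those toward E15. The 3 gene-level clusters, Sox11, Sox4 and Nr2f1 (-1.56), were higher at E15, while Cux2 (0.55) and Cux1 (0.05) stood among the 4 with positive differences in the splicing index table. Of the neuron markers, Dcx (-2.29) and Nefm (-1.71) were higher at E15 and Syt1 (1.97) in adult, and 4 more, up to Camk2a at 2.66, had positive differences without a gene-level entry. All 4 oligodendrocyte markers with an entry were higher in adult, Mobp at 1.05 and Mbp at 2.09 among them. Foxj1 stood beside the cilium genes Hydin (-1.03) and Dynlrb2 (-1.01), the 2 entries of 8 listed ependymal markers. After re-centring, Sox11 alone of these neural factors, and 0 of the 2 ependymal markers, stayed past 2-fold at E15. Rfx4, a factor of cilia and neural patterning, had -0.54 in the splicing index table. The part of these markers was not tested.

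Markers of the plexus epithelium could be checked only for direction. Of 16 listed, 6 had an entry, and all 4 gene-level clusters, those of Kl and Cldn2, 1 of Prlr and 1 shared by Prlr and Agxt2, were higher in adult. Prlr is thus counted more than once among the 4. For the lists of this paragraph, 45.6% of all joined clusters were gene-level and 48.8% of those were higher in adult. Ttr, its most abundant product, had no entry. Immune factors were few: of 35 listed, Stat5a (1.31) was in the gene-level table, and the members Irf9 (0.83) and the macrophage factor Sfpi1 (-0.25) were below 2-fold. Of the markers of macrophages and MHC class II cells, the 4 gene-level clusters, Cd74 and 3 of class II genes, were higher in adult. Csf1r, Cx3cr1 and Ptprc had negative differences in the splicing index table, as did 56.5% of all clusters found only there.

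Of 37 listed stress and metabolic factors 11 had an entry and 4 were in the gene-level table, against 45.6% of joined clusters, with 2 in each direction. Hif3a (-2.49) and Bach1, a repressor controlled by heme (-1.07, fold 2.10), were higher at E15, of which Hif3a alone stayed past 2-fold after re-centring. Xbp1, the factor of the unfolded protein response, had values of 0.69 in adult and -0.48 at E15, a difference of 1.18 (fold 2.26), and Nfe2l1, which controls proteasome genes, one of 1.17 (fold 2.26). The splicing index table gave Hif1a 0.22 and Srebf1 0.50, so the paralogues Hif3a and Hif1a differed widely in the size of their differences.

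Other epithelial factors, 12 clusters from 40 symbols, included 5 in the gene-level table, Ehf higher in adult and Tead2, Meis2, Pbx2 and Pbx3 higher at E15. Over all clusters 45.6% were gene-level and 51.2% of those toward E15, and after re-centring Ehf alone of the 5 stayed past 2-fold. Tead3 (-0.87) and Tead4 (-0.32), relatives of Tead2, were below 2-fold, and Gata3 (0.76) and Gata6 (-0.56) stood on opposite sides. Nfatc4 (-1.81) and Nfatc2 (1.00, fold 2.00), 2 factors of the calcineurin pathway, were in the gene-level table with opposite directions, and Nfat5 was at -0.03. Of the 22 immediate early and AP-1 symbols 3 had an entry and 1, Nr4a2, was in the gene-level table, against 45.6% of joined clusters, with Nr4a3 and Ier2 (-0.67) below 2-fold and no entry for Fos, Jun or Egr1. These absences hold no value and do not show that the genes were equal.

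The remaining gene-level members at E15 were Lcorl (-1.29), Trim28 (-1.22), Ebf1 (-1.21), Satb1 (-1.13), Runx1t1 (-1.48), Fank1 (-1.47), Tcf19 (-1.44) and Tcfe2a (-1.02), the last being the E protein gene now named Tcf3. Trim28 is the corepressor of the KRAB zinc finger proteins, Runx1t1 a corepressor of the Eto family and Satb1 an organizer of chromatin. Lcorl is counted here as a cofactor, and Fank1 and Tcf19 among the other proteins. In adult they were Tshz1 (1.24), Ugp2 (1.11), Ankrd45 (1.08), Ripk4 (1.61) and the cluster of Pam and Btf3 (1.24), in which the transcription factor annotation belongs with Btf3 and the value to neither gene alone.

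Below the threshold most members had values higher at E15, without a test. Among the 89 members with a splicing index entry alone, 63 (70.8%) had a negative difference, against 56.5% of the 2151 clusters of that kind, and their median was -0.32 against -0.13. Re-centring this table adds 0.16 to each difference and turns the sign of 8 of these members, Tbpl1, Hoxb3, Lhx6, Tnni3k, Creb5, Nfat5, 2410018C20Rik and Barx2. Such small values have no test, and the table was selected on the splicing index. All 9 general transcription and elongation factors were among the 89, 7 of them with negative differences, from Gtf2e2 at -0.79 to Tcea3 at 0.79, so none reached 2-fold. Of the KLF family, Klf10 (-0.96), Klf11 (-0.58) and Klf8 (-0.30) lay toward E15 and Klf13 (0.31) toward adult, opposite or small beside Klf9. Hoxb3, the only Hox member, was at -0.02.

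Members near 2-fold show how the threshold divides them. Tgif1 (-1.0002), Emx2 (-1.01) and Tcfe2a (-1.02) were just inside at E15 and Nfatc2 (1.00), Zhx3 (1.02) and Tef (1.04) in adult. Just outside were Smad3 (-0.99), the Notch target Heyl (-0.98), Caskin1 (0.97), counted among the other proteins, and Klf10. The merged values of 3 more members without a gene-level entry were 2-fold or more apart, Crebl2 (1.33, fold 2.52), Foxf2 (fold 2.32) and Nrarp (fold 2.01), which brings the members past 2-fold to 69 of 155 (44.5%), against 47.3% of the joined tables.

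The splicing index is a signed score from the authors' exon-level analysis for exons that depart from the change of the whole gene. Its scale is not stated and its smallest size in the table is 0.5. It was held for 135 members with a median of 10 probe sets (3 to 38), against 13 over the whole list. The 5 largest in size were those of Sox11 (-3.46, from 5 probe sets), Hopx (-2.32, 5), Sebox (2.23, 5), Dach1 (2.13, 17) and Klf9 (-1.72, 9) in the authors' deposited table, so 3 of the 5 rest on 5 probe sets. In 85 of the 135 (63.0%) the index and the difference had opposite signs, against 62.5% of the splicing index table. Sox11 and Sebox had the same sign in both, and Hopx, Dach1 and Klf9 opposite signs. Among the clock factors with an index all but Klf10 were higher in adult, and each of these had a negative index, from -0.62 for Clock to -2.91 for Bhlhb2. Opposite signs were the usual case among clusters at least 2-fold apart, 77.5% over the whole table and 73.5% of members.

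**Figure D4:**
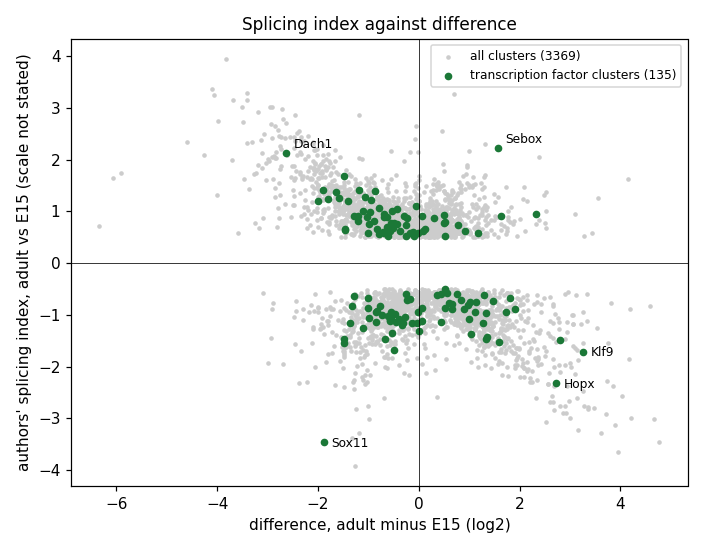
The authors' splicing index (score, scale not stated, at least 0.5 in size) against the difference (adult minus E15, log2) for 135 transcription factor clusters in green and all 3369 clusters of the table in grey, each point 1 cluster from merged arrays. Sox11, at a difference of -1.88, has the lowest index of the members, and Sebox and Sox11 lie in the quadrants where both signs are the same.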

How the data were processed

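Pooled lateral ventricular choroid plexus RNA of 3 E15 and 3 adult pools was amplified and hybridised to 6 Affymetrix mouse exon arrays, the number of which limits the precision. The authors normalised gene-level data with Affymetrix Power Tools (RMA, per-chip median), kept the top 80th percentile of expressed genes, tested the ages with Benjamini-Hochberg correction and deposited log2 values, 1 per age, for clusters past 2-fold. The splicing index, a score, was made by the authors with PLIER, a detection filter and an analysis of variance before it was deposited. Fold change columns hold the authors' own comparison and were not used. The genome build is not given in the sources used here.

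Both tables were joined by cluster, and the adult value minus the E15 value was computed. As no column of these tables holds a single array, limma, leaving out replicates, the replicate block and a filter on low values were not run. The members, 15 factor lists, 9 marker lists and families were chosen with earlier results of these data known; families and the clock partners were set after the values were seen. Named were the 10 largest differences in each direction, the list members, the name families, the 5 largest splicing indices and the members nearest 2-fold; others complete the gene-level table. Wilson intervals are at 95%. Promoters come from RefSeq (GRCm38.p6), matched by symbol for 123 of 155 members; 6 older symbols were updated. A few genes counted in the lists are not reported here by name. The member rule and the summaries were tested on simulated data. Python 3.11.15, numpy 2.4.6, pandas 2.3.3, scipy 1.17.1 and matplotlib 3.10.9 were used. The alternatives were fold thresholds of 3 and 4, changes to the annotation match, 1 symbol per cluster or 1 cluster per symbol, re-centring, a splicing index minimum of 1 and, added after the data were seen, sequence-specific factors only.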

Additional observations from a re-analysis of the deposited data

How the results depend on the processing

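Of 60 recomputed summary values 44 stayed within their limits (a factor of 1.5 for counts and medians, the Wilson interval for shares). The others were these. A threshold of 3-fold left 8 members higher at E15 and 11 in adult, with a median difference of 1.63 and 12.3% of all members past it. A threshold of 4-fold left 2 and 4, 33.3% of them higher at E15, with a median of 2.53 and 3.87% of all members. Re-centring left 5 past 2-fold at E15, a share of 13.5%, with a median of 2.13 and 27.1% of all members past 2-fold. The 3 medians turned sign because fewer clusters remained on the E15 side. Without electronic annotations 18 members were higher in adult. A splicing index minimum of 1 gave 72.0% of members past 2-fold, since it removes clusters that are only in that table, and 53.8% with opposite signs. Among those within their limits, restricting to sequence-specific factors, chosen after the data were seen, gave 29 at E15 and 25 in adult.

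No paired analysis was possible because the columns of the 2 processed tables used here hold 1 merged value per age and carry no replicate number; single arrays were not analysed here. Signal over background cannot be read from centred values.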

Other observations

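Factors and partners outside the rule were looked up in 2 further lists. Of 18 proliferation-linked symbols 9 had an entry, and 6 of its 7 gene-level clusters lay toward E15: E2f7 at -2.31, Foxm1, E2f8 at -1.69, Mycl1 at -1.44, Myc at -1.38 and Mycn at -1.24. Of all gene-level clusters 51.2% lay toward E15, and after re-centring 2 of the 6, E2f7 and Foxm1, stayed past 2-fold. Tfdp2, the dimer partner of E2F factors, was higher in adult at 1.76. Of 10 fetal growth and imprinted symbols 7 had an entry, and its 4 gene-level clusters lay toward E15, the RNA-binding Igf2bp1 at -4.06 (fold 16.6), Igf2bp3 at -3.34 and Igf2bp2 at -2.37, and the zinc finger factor Plagl2 at -1.72, of which all but Plagl2 stayed past 2-fold after re-centring. Of the 36 clusters left out for their biological process, 16 had a gene-level entry, 14 toward E15 and 2 toward adult. With them kept in, 48 of 82 gene-level clusters (58.5%) were higher at E15.

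Some annotation terms that the rule did not use were counted over the gene-level table, chosen after the values were seen. Multicellular organismal development was carried by 7 members higher at E15 and 7 higher in adult, where the whole table had 77 and 33. Zinc ion binding was carried by 8 and 13, where the table had 91 and 67, and brain development by 3 and 1, where it had 10 and 1. Rhythmic process was carried by 0 and 4 members, where the table had 1 and 5. Neuron differentiation was carried by 3 and 0, where the table had 5 and 1, and sequence-specific DNA binding by 18 and 18, where it had 25 and 19. The ciliogenesis list of 15 symbols gave 4 clusters, and Foxj1 and Myb (-2.70), its 2 gene-level clusters, were higher at E15, against 45.6% of joined clusters with a gene-level entry and 51.2% of those toward E15. After re-centring Myb alone stayed past 2-fold.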
